A study of Mus musculus with 24 samples.

Results

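The collagens, laminins and other basement membrane genes were followed in 24 RNA libraries of mouse cells, from the epiblast to definitive endoderm. The cells were treated for 21 h with a degrader aimed at the transcription factor OTX2 or with vehicle. The genes were taken by symbol: every collagen chain gene of the form Col with a type number and a chain number, every laminin chain gene, and Fn1, Nid1, Nid2, Hspg2, Agrn, Sparc and Vtn. Of 61 such genes in a table of 18205, 55 had a normalised read count of at least 10 in at least 3 libraries. These 55 genes are described here, and they are a small part of the 15037 genes that met the same filter. They comprise 10 laminin chains, 4 collagen IV chains, 11 fibrillar collagen chains, 8 chains of fibril-associated (FACIT) collagens, 4 collagen VI chains, 2 multiplexins, 4 transmembrane collagens, 5 other collagens and 7 glycoproteins or proteoglycans. The 6 genes below the filter were Lamc3, Col4a3, Col4a4, Col6a4, Col19a1 and Col28a1. Just outside the filter lay Col19a1, at 10 or more in 2 libraries with a highest value of 27.2. Just inside it lay Vtn, at 10 or more in 4 libraries with a highest value of 25.6. Another 6 genes reached 10 in at most 8 libraries, namely Col9a1, Col10a1, Col6a5, Col24a1, Col17a1 and Col26a1. Their place among the 55 rests on the groups in which they are high.

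A basement membrane is the thin protein sheet under every epithelium. Laminins, which are trimers of an alpha, a beta and a gamma chain, assemble first on the cell surface. Collagen IV forms a second network, nidogens and the heparan sulphate proteoglycans perlecan and agrin link both, and fibronectin and fibrillar collagens fill the space beyond. The epiblast rests on such a sheet, cells that pass through the primitive streak break through it, and definitive endoderm becomes an epithelium with a sheet of its own.

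All cells carried OTX2-dTAG-EGFP, controls included, on a BL6/129 hybrid background. OTX2 is a homeobox protein known from epiblast and forebrain, and the degrader dTAG13 sends a dTAG fusion to the proteasome. The groups were epiblast stem cells (EPI), cells of the primitive streak (PS), and definitive endoderm after 24 h (DE1) or 48 h (DE2), each treated for 21 h with dTAG13 or with DMSO as the vehicle. Lines 7H, 7H1 and 7H2 gave 1 library each to all 8 groups, so that n is 3 per group. The medium of EPI cells was N2B27 plus 20 ng/ml activin A, 12.5 ng/ml FGF2 and 175 nM NVP. For PS, 40 ng/ml activin A and 3 µM CHIR in CDM were given during 16 h. The endoderm groups likewise had 16 h of streak induction, and their endoderm culture held 100 ng/ml activin A and 100 nM LDN. No source used here tells how the lines relate or whether each is 1 clone, and the p-values measure the spread between these lines alone. The exposure of 21 h is longer than the 16 h in which PS cells were made, so part of it may lie in the culture before. It is shorter than the 24 h or 48 h of endoderm culture, so no endoderm group had dTAG13 throughout.

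Deposited values summed to 24.4 to 27.2 M per library, and 15260 to 16536 genes lay above 0. These sums are of normalised values, so the depth behind them is unknown. The 55 genes took 0.341 to 1.01% of a library. In DMSO their share rose with the stage, from a mean of 0.392% in EPI to 0.479% in PS, 0.600% in DE1 and 0.955% in DE2. All 7 endoderm markers (Sox17, Foxa2, Cxcr4, Gata4, Gata6, Hhex and Cer1) were above 0 in DE1 and DE2, summing to 72308 to 120483 with DMSO against 1444 to 2676 in EPI. With dTAG13 they summed to 70860.5 to 96906 in DE1, below the 97351 to 120483 of DMSO there, and to 75452 to 97805 in DE2, inside the range of DMSO (72308 to 113931). Sox17 fell with dTAG13 at every stage, with log2 fold changes of -3.32, -4.13, -1.95 and -2.15 in EPI, PS, DE1 and DE2. It was the 1 marker of the 7 called in DE1, and Cxcr4, Gata4 and Gata6 were also lower in DE2. At both times 2 of the 7 had positive log2 fold changes. In EPI 3 of the 7 were called lower and in PS 2, where 0.0865% and 0.219% of all tested genes were called. In EPI and in PS 6 of the 7 had negative log2 fold changes, with medians of -1.09 and -1.31. The Otx2 transcript was not called in any dTAG13 comparison, and it does not check the protein on which dTAG13 acts. In these bulk samples, fewer cells of a type and less RNA per cell cannot be told apart.

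The starts of 4 of the genes that changed are shown from RefSeq (GRCm38.p6), as windows from 250 bases before to 50 bases after an annotated start. A window was found for 40 of the 55 genes, 45 windows in all. Capitals mark 3 motifs on either strand, searched separately so that matches may overlap. The core bound by OTX-type homeodomains reads TAATCC, and its reverse complement on the other strand is GGATTA. The GC box was searched as GGGCGG and, for the other strand, written as CCGCCC. The third motif was CCAAT, whose other strand reads ATTGG. Col4a2 is shown because Col4a1 starts 21 bases away on the other strand, inside the same window (chr8:11312555-11312854, plus strand). Lama5 (chr2:180225810-180226109, minus strand) and Lamb1 (chr12:31265043-31265342, plus strand) are shown as laminin genes lower with dTAG13 in DE1. Agrn is shown at an alternative start (chr4:156186210-156186509, minus strand), chosen because it holds TAATCC. Its window at the start of the annotated gene (chr4:156197439-156197738, minus strand), not shown, holds 0 matches of TAATCC and 12 of the GC box.
Col4a2: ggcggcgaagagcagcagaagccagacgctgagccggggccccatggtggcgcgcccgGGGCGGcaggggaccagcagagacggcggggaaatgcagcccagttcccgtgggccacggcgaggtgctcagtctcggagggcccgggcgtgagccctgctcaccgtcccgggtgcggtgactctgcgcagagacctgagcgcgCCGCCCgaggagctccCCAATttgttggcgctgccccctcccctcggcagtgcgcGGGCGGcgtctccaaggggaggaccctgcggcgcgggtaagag
Lama5: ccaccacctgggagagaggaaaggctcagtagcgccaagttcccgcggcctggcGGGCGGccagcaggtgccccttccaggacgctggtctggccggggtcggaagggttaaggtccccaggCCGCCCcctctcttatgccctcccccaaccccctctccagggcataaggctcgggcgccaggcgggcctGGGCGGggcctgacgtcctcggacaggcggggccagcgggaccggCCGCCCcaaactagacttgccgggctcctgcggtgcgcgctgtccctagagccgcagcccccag
Lamb1: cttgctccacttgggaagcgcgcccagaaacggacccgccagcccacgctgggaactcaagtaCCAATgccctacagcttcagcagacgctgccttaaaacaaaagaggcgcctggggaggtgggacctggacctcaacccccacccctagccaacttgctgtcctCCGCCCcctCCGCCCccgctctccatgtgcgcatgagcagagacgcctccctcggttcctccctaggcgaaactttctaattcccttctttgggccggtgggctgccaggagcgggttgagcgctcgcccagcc
Agrn: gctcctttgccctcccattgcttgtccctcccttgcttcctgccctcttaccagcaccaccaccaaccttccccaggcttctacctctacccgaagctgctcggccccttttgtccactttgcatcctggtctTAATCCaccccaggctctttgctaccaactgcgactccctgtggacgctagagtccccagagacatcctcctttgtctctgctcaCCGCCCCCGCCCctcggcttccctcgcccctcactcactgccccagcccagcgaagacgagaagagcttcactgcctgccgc
TAATCC was present in 2 of the 45 windows (4.44%), against 7.06% of all 32851 windows. These were the alternative Agrn start shown and a window of Lamb2. GGGCGG was present in 28 of 45 (62.2%) against 35.7% of all windows, and CCAAT in 14 of 45 (31.1%) against 37.4%. A match describes these letters and not a bound site, and other stretches of these genes were not examined.

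Differences were tested in limma on log2(value + 1), and "called" means an adjusted p (Benjamini-Hochberg, 15037 genes) under 0.05. Log2 fold changes are on that scale, which understates the change of low genes. Values are normalised read counts in the order of lines 7H, 7H1 and 7H2. Gene coordinates are those of GRCm38 (GENCODE M21). A block means a fit with the cell line as a further term. For the dTAG13 comparisons and their differences, the line terms were set separately within each stage. For the steps between DMSO groups they were shared by all stages. Between DMSO groups, 13 of the 55 genes were called from EPI to PS (7 higher and 6 lower), where 27.5% of all tested genes were called (14.6% higher and 12.8% lower). From PS to DE1 24 were called (15 higher and 9 lower), against 44.1% of all tested genes (21.7% higher and 22.4% lower). From DE1 to DE2 26 were called (22 higher and 4 lower), against 39.3% of all (20.2% higher and 19.1% lower). The median log2 fold change of the 55 genes was 0.07, 0.28 and 0.66 in the 3 steps, beside -0.01, -0.01 and 0.02 over all tested genes. The shares of the 55 genes called were 23.6%, 43.6% and 47.3%, near those of all genes, and the calls of the last step were mostly upward. Successive steps share the libraries of the middle stage.

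With dTAG13, 0 of the 55 genes were called in EPI (0.0865% of all tested genes called, 0.0865% lower and 0% higher; 2 of the 55 at an unadjusted p under 0.05). In PS 0 were called (0.219% of all, 0.0865% higher and 0.133% lower; 6 at an unadjusted p under 0.05), or 2 with the cell line as a block. In DE1 9 were called, 3 higher and 6 lower, where 7.76% of all genes were called (3.74% higher and 4.02% lower). With the line as a block this was 16, with 9 higher and 7 lower. In DE2 17 were called, 7 higher and 10 lower, where 17% of all genes were called (8.65% higher and 8.31% lower). The block added calls in DE2 as well, among them Lama1, Lama3, Col1a1, Col5a2, Col7a1, Col8a1 and Col23a1, and removed that of Col4a6. The 16 of DE1 with the block is thus not to be set beside the 17 of DE2 without it. The shares of the 55 genes were 16.4% in DE1 and 30.9% in DE2, and whether they exceed those of all genes was not tested. Together 20 genes were called in DE1 or DE2, of which 6 were called in both and in the same direction. The matching shares of all tested genes were not counted, so these 2 counts are no result about the 55 genes. Median log2 fold changes in EPI, PS, DE1 and DE2 were -0.17, 0.13, 0.37 and -0.14. Over all tested genes they were -0.01, 0.00, 0.00 and 0.00. Without 1 line at a time, 4 to 6 were called in DE1 and 6 to 12 in DE2. The lowest count in DE2 was without 7H1, and in DE1 without 7H1 or without 7H2.

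**Figure D1:**
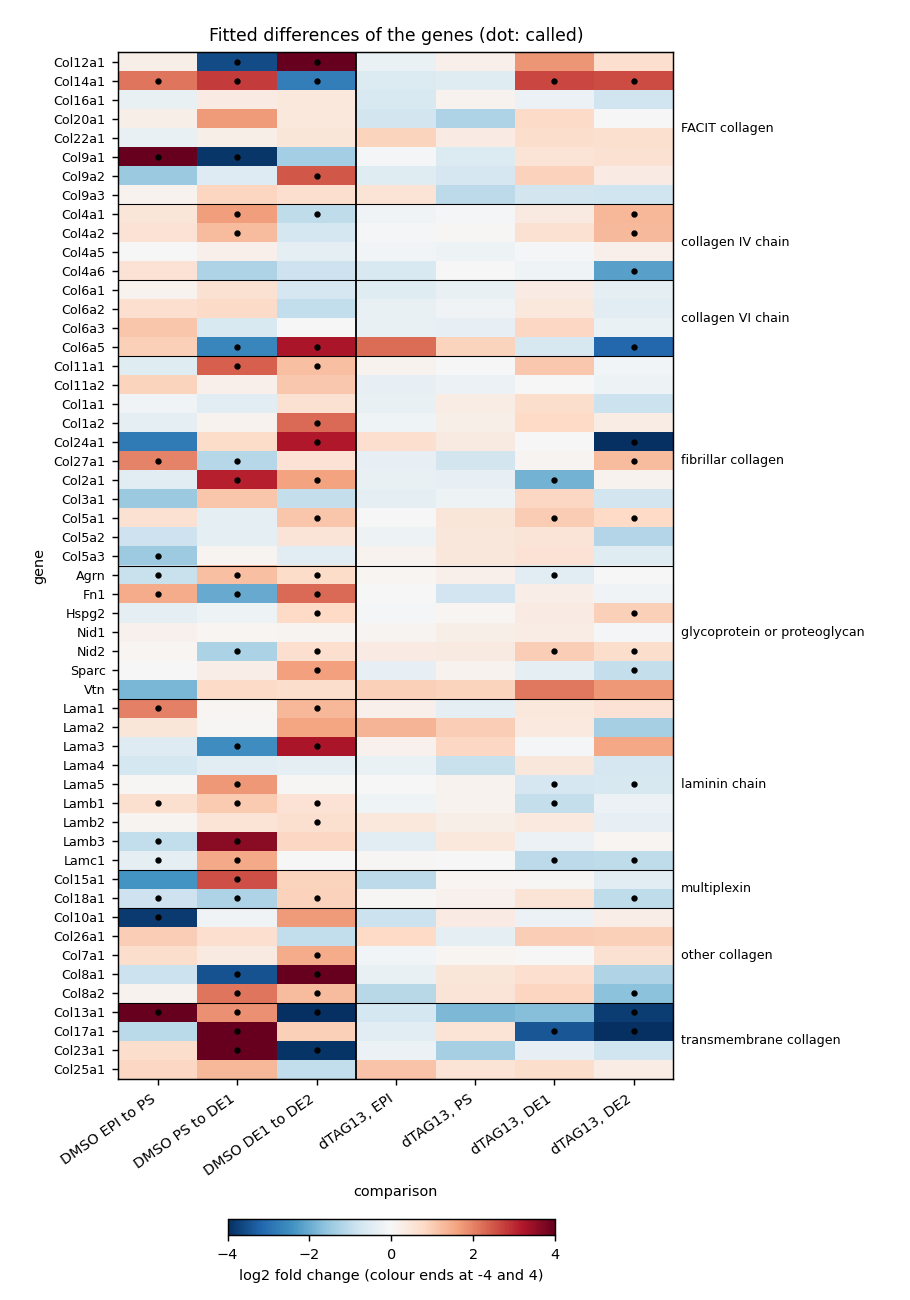
Fitted log2 fold change of 54 of the 55 genes (rows, by family) in the 3 steps between DMSO groups and the 4 comparisons of dTAG13 with DMSO (columns), with colours that end at -4 and 4 and a dot for a call. No dot stands in the EPI and PS columns of dTAG13, against 9 in DE1 and 17 in DE2.

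Among laminins, the chains Lama5, Lamb1 and Lamc1, which form the main trimer of many epithelial basement membranes, rose in DMSO on entry into endoderm. With dTAG13 all 3 fell in DE1, and Lama5 and Lamc1 fell in DE2 as well. Per kb of exon (union of the annotated exons, GRCm38), Lama5 was the highest of all 55 genes in DE1 with DMSO (3475 counts per kb), followed by Lamc1 (2743) and Lamb1 (1939). Lamc1, the gamma chain of most laminins (chromosome 1, 153218922 to 153332786, minus strand), stood at 10333, 9527 and 11722 in EPI with DMSO, 8693, 8367 and 6835 in PS, 21531, 21658 and 24876 in DE1 and at 22497, 24942 and 21430.4 in DE2. Its dTAG13 values were 10229.7, 10059.6 and 12203 in EPI, 8825, 7253 and 8205 in PS, 10482, 11721 and 10533 in DE1 and 13124, 10718 and 10250.2 in DE2. In endoderm every dTAG13 library was below every DMSO library, near the level of EPI, while in EPI and PS the groups overlapped. Lamc1 fell with dTAG13 in DE1 (log2 fold change -1.05, SE 0.12, adjusted p = 3.92e-06) and in DE2 (log2 fold change -1.02, SE 0.12, adjusted p = 2.49e-06). The calls were kept in each setting tried, including those without 1 line. In DMSO it fell slightly from EPI to PS (log2 fold change -0.40, adjusted p = 0.0141; 0.302 without 7H2) and rose from PS to DE1 (log2 fold change 1.51, SE 0.12, adjusted p = 2.78e-09).

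Lama5, the alpha chain of that trimer (chromosome 2, 180176373 to 180225859, minus strand), stood at 9712, 11348 and 13441 in EPI, 14585, 12844 and 8841 in PS, 36869.9, 36557 and 45282 in DE1 and at 36202, 49019.9 and 37872 in DE2 with DMSO. With dTAG13 the values were 9232, 12080.2 and 13179.7 in EPI, 14718, 11326 and 13288 in PS, 23809, 26333 and 24702 in DE1 and 25939, 26514 and 26384 in DE2. The endoderm groups did not overlap, and the 3 dTAG13 values in DE2 lay close together. Lama5 rose from PS to DE1 in DMSO (log2 fold change 1.73, SE 0.17, adjusted p = 5.41e-08) and fell with dTAG13 in DE1 (log2 fold change -0.66, SE 0.17, adjusted p = 0.0158) and DE2 (log2 fold change -0.63, SE 0.17, adjusted p = 0.0119). The DE1 call was lost without 7H1 (adjusted p = 0.107), without 7H2 (0.136) and with quantile normalisation (0.0797). The DE2 call was lost without 7H1 (adjusted p = 0.246).

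Lamb1, the beta chain (chromosome 12, 31265234 to 31329644, plus strand), fell with dTAG13 in DE1 and was not called in DE2. It stood at 17396, 20855 and 19424 in DE1 with DMSO, against 10790.1, 11791 and 7459 with dTAG13, with no overlap. In DE2 it stood at 28352, 33394 and 24107 with DMSO, against 24306, 27482 and 20603 with dTAG13, with overlap and each line lower. Lamb1 fell in DE1 (log2 fold change -0.96, SE 0.21, adjusted p = 0.00457), a call just lost without 7H1 (adjusted p = 0.0507), and was not called in DE2 (log2 fold change -0.24, adjusted p = 0.486). The difference between the 2 effects was 0.72 and was not called (adjusted p = 0.161), but was called with the line as a block (adjusted p = 0.00405). In DMSO Lamb1 rose in every step, with log2 fold changes of 0.64, 1.05 and 0.57. The first was lost without 7H (adjusted p = 0.319), with equal totals (0.0577) and with quantile normalisation (0.0558), and the third without 7H (0.187) or 7H1 (0.173).

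Lama1, the alpha chain of the first laminin trimer of the embryo (chromosome 17, 67697259 to 67822647, plus strand), was far less abundant and moved differently. With DMSO it stood at 50.6, 66.3 and 88.3 in EPI, 297, 275 and 251 in PS, 300.4, 258 and 304 in DE1 and at 926, 654 and 629 in DE2. It rose from EPI to PS (log2 fold change 2.02, SE 0.27, adjusted p = 1.14e-05) and from DE1 to DE2 (log2 fold change 1.34, SE 0.27, adjusted p = 0.000448). In PS it was at 214, 177 and 249 with dTAG13, lower in each line and without overlap, and was not called (log2 fold change -0.37, adjusted p = 0.775). The dTAG13 libraries held 408, 374 and 368 in DE1 and 1739, 800.2 and 892 in DE2. Every line was higher with dTAG13 in DE1 and DE2, without overlap in DE1 and with overlap in DE2, but neither was called (adjusted p = 0.432 and 0.160), and the DE2 difference of 0.57 was called with the line as a block (adjusted p = 0.0193). The ratio of Lama1 to Lama5 per kb of exon was 0.00958, 0.00830 and 0.00790 in DE1 with DMSO and 0.0202, 0.0167 and 0.0175 with dTAG13. In DE2 it was 0.0301, 0.0157 and 0.0195 with DMSO and 0.0789, 0.0355 and 0.0398 with dTAG13. The groups did not overlap at either time, and the dTAG13 ratios were the higher. In PS they did not overlap either, but there the dTAG13 ratios were the lower, at 0.0171, 0.0184 and 0.0220 against 0.0239, 0.0252 and 0.0334 with DMSO. The EPI groups overlapped. The ratio of Lamb1 to Lamc1 was 0.674, 0.803 and 0.651 with DMSO and 0.859, 0.839 and 0.591 with dTAG13 in DE1, with overlap, and 1.05, 1.12 and 0.938 with DMSO and 1.54, 2.14 and 1.68 with dTAG13 in DE2, without. These ratios are descriptions with no test.

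The other laminin chains were lower in level. Lama3 and Lamb3 encode chains of laminins found under stratified epithelia. Lamb3 (chromosome 1, 193207699 to 193343878, plus strand) went from 45.1, 67.5 and 60.5 in PS to 504, 907 and 761 in DE1 and 1328, 1217 and 1237 in DE2 with DMSO, and rose from PS to DE1 (log2 fold change 3.60, SE 0.35, adjusted p = 5.63e-08). Its fall from EPI to PS (-0.97, adjusted p = 0.0434) was lost without 7H (0.193), without 7H2 (0.415) and with quantile normalisation (0.102). Lama3 ran the other way at first, from 98, 80.6 and 64.5 in PS to 40.7, 5.14 and 10.8 in DE1 and 169, 80.2 and 199 in DE2. It fell from PS to DE1 (log2 fold change -2.48, SE 0.66, adjusted p = 0.00427; adjusted p = 0.102 without 7H1) and rose to DE2 (log2 fold change 3.28, SE 0.66, adjusted p = 0.000521). With dTAG13 Lama3 stood at 438, 327 and 488 in DE2, above all 3 DMSO libraries, and was not called (log2 fold change 1.56, adjusted p = 0.117; 0.00455 with the line as a block).

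Lamb2, a beta chain of muscle and kidney basement membranes, was at 1095, 885 and 1066 in DE1 and at 1258, 1644 and 1941 in DE2 with DMSO. It rose in that step (log2 fold change 0.65, SE 0.26, adjusted p = 0.0490), and the call was lost without 7H1 (adjusted p = 0.174), without 7H2 (0.256), with quantile normalisation (0.0647) and with no filter on low values (0.0550). Lama2 and Lama4, alpha chains of muscle and vessel basement membranes, were not called in any comparison. In DE2 Lama2 stood at 77.2, 67.4 and 55.1 with DMSO, against 17.4, 23.1 and 42.9 with dTAG13, and Lama4 at 69.1, 105 and 53.2 with DMSO, against 23.7, 92.5 and 42 with dTAG13. The Lama2 groups did not overlap, while those of Lama4 did.

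**Figure D2:**
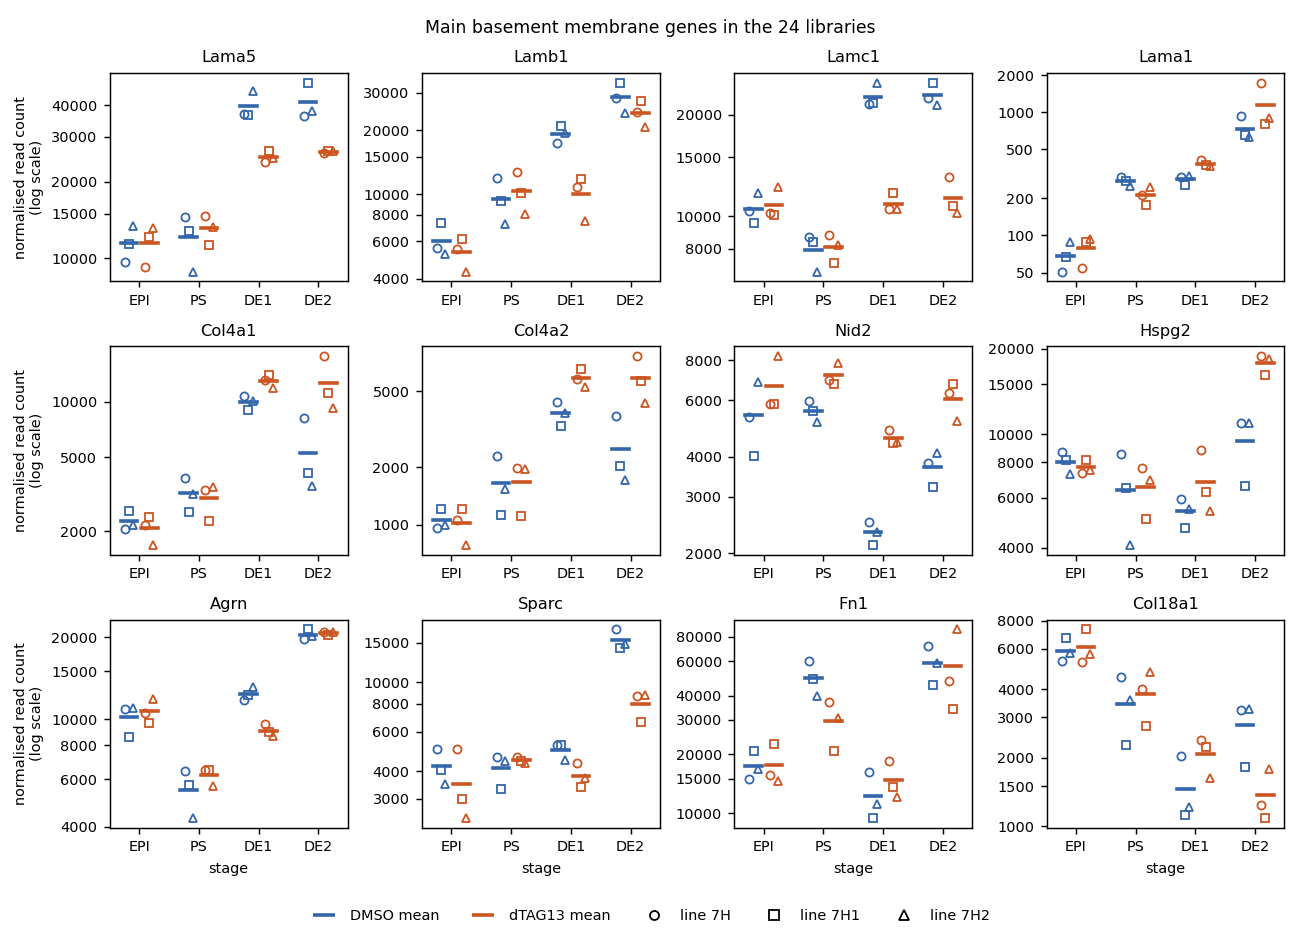
Normalised read count (log axis) of 12 basement membrane genes by stage, with 1 point per library (shape by cell line, colour by treatment) and a bar at each group mean. The dTAG13 points of Lamc1 and Lama5 lie below the DMSO points in DE1 and DE2, and those of Col4a1, Col4a2, Hspg2 and Nid2 lie above them in DE2.

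The main collagen IV chains Col4a1 and Col4a2 rose with dTAG13 in DE2, where Lama5 and Lamc1 fell. Both chains form the collagen IV trimer found in almost every basement membrane. Col4a1 (chromosome 8, 11198423 to 11312826, minus strand) stood at 2055, 2564 and 2167 in EPI, 3895, 2523 and 3182 in PS, 10785, 9012 and 10149 in DE1 and at 8208, 4106 and 3492 in DE2 with DMSO. With dTAG13 it stood at 2161, 2376 and 1679 in EPI, 3352, 2253 and 3477 in PS, 13092, 13924 and 11802 in DE1 and at 17714, 11155 and 9262 in DE2. The groups overlapped in EPI and PS and lay apart in both endoderm stages. In DMSO Col4a1 rose from PS to DE1 (log2 fold change 1.66, SE 0.26, adjusted p = 4.11e-05) and fell from DE1 to DE2 (log2 fold change -1.02, SE 0.26, adjusted p = 0.00438). The fall was lost without 7H1 (adjusted p = 0.0545) and without 7H2 (0.106). With dTAG13 Col4a1 rose in DE2 (log2 fold change 1.32, SE 0.26, adjusted p = 0.00143), and in DE1 it was not called (log2 fold change 0.37, adjusted p = 0.495; 0.0250 with the line as a block).

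Col4a2, whose start shares the window printed above (chromosome 8, 11312805 to 11449287, plus strand), moved in the same direction as Col4a1. It stood at 4397, 3284 and 3829.6 in DE1 and at 3732, 2021 and 1721 in DE2 with DMSO, and at 5829, 6545 and 5249.7 in DE1 and at 7674, 5697 and 4346 in DE2 with dTAG13, again without overlap. Col4a2 rose from PS to DE1 in DMSO (log2 fold change 1.27, SE 0.29, adjusted p = 0.00140) and rose with dTAG13 in DE2 (log2 fold change 1.29, SE 0.29, adjusted p = 0.00371). The DE2 call was just lost without 7H1 (adjusted p = 0.0505) or 7H2 (0.0566), and in DE1 the difference of 0.62 was called with the line as a block alone (adjusted p = 0.00621, against 0.240). Per kb of exon, the ratio of Col4a1 to Col4a2 stayed between group means of 1.63 and 2.32 in all 8 groups. In DE1 it was 2.17, 2.43 and 2.35 with DMSO and 1.99, 1.89 and 1.99 with dTAG13, lower in each line and without overlap. In DE2 it was 1.95, 1.80 and 1.80 with DMSO and 2.05, 1.74 and 1.89 with dTAG13, with overlap.

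The minor collagen IV chains were much lower. Col4a5, a chain of kidney and smooth muscle sheets, lay between 99.1 and 199.99 over the 24 libraries and was not called in any comparison. Its partner Col4a6, which starts 1309 bases from it on the X chromosome, stood at 8.74, 47.4 and 11.7 in DE2 with DMSO, against 5.78, 0 and 8.81 with dTAG13. The groups overlapped, and line 7H1 alone held both the highest value and the 0. Col4a6 was called lower (log2 fold change -2.16, SE 0.72, adjusted p = 0.0435), but the log2 fold change was -0.45 without 7H1 (adjusted p = 0.762), and the call was also lost with the line as a block (adjusted p = 0.0594), with a pseudocount of 5 (0.0830), with quantile normalisation (0.0977) and without 7H2 (0.0806).

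**Figure D3:**
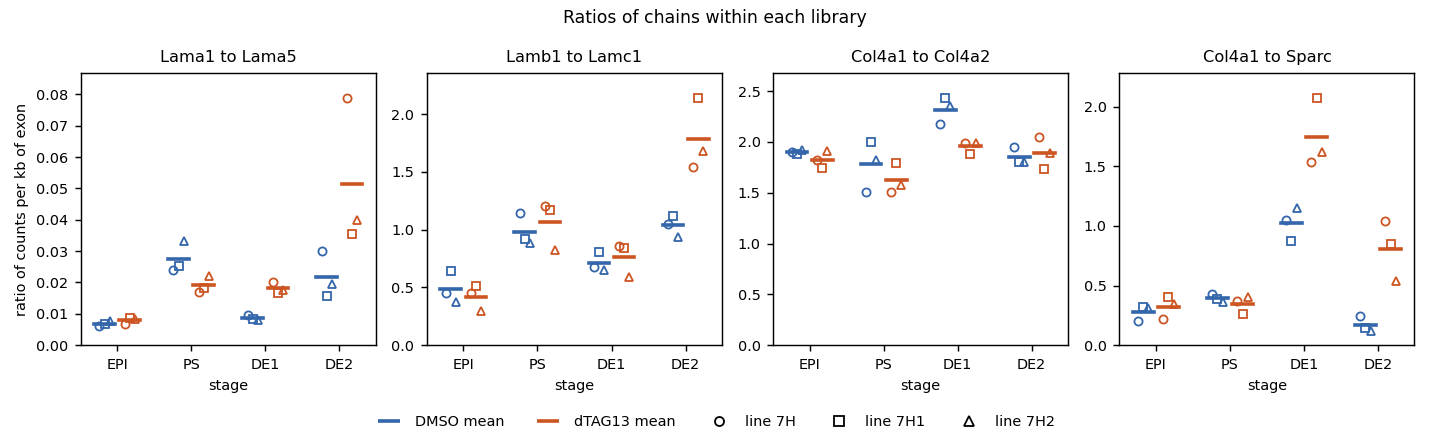
Ratios of counts per kb of exon within each library (linear axes from 0), by stage, with 1 point per library and a bar at each group mean. Lama1 to Lama5 and Col4a1 to Sparc are higher with dTAG13 in DE1 and DE2 without overlap, and Lamb1 to Lamc1 in DE2 alone. With dTAG13, Lama1 to Lama5 is lower in PS and Col4a1 to Col4a2 is lower in DE1, both without overlap.

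Of the linkers, Nid2 rose with dTAG13 in both endoderm stages, Hspg2 rose in DE2 and Agrn fell in DE1. Nid2, which joins laminin to collagen IV (chromosome 14, 19751265 to 19811787, plus strand), stood at 5961, 5555 and 5149.6 in PS, 2509, 2118 and 2332 in DE1 and at 3813, 3219 and 4110.1 in DE2 with DMSO, and at 6961, 6736 and 7868 in PS, 4846, 4403 and 4459 in DE1 and at 6317, 6737 and 5161 in DE2 with dTAG13. The groups did not overlap at any of these stages. Nid2 rose with dTAG13 in DE1 (log2 fold change 0.98, SE 0.16, adjusted p = 0.00034) and DE2 (log2 fold change 0.71, SE 0.16, adjusted p = 0.00334), and the DE2 call was lost without 7H (adjusted p = 0.0732) and without 7H1 (0.101). In PS it was not called (log2 fold change 0.37, adjusted p = 0.537). In DMSO Nid2 fell from PS to DE1 (log2 fold change -1.26, adjusted p = 1.87e-06) and rose to DE2 (0.67, adjusted p = 0.00196). Its relative Nid1 was not called in any comparison, with 2085, 1085 and 1190.2 in DE2 with DMSO, against 1630.2, 1015 and 1387 with dTAG13. The Nid1 groups overlapped, as they did in the other stages.

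Hspg2, which encodes the proteoglycan perlecan (chromosome 4, 137468769 to 137570630, plus strand), stood at 5945, 4678 and 5476 in DE1 and at 10932, 6587 and 11003 in DE2 with DMSO. Its dTAG13 values were 8844, 6262 and 5372 in DE1 and 18897, 16153 and 18388 in DE2, overlapping in DE1 and apart in DE2. Hspg2 rose with dTAG13 in DE2 (log2 fold change 0.94, SE 0.23, adjusted p = 0.00702), a call lost without 7H1 (adjusted p = 0.139), the line with the lowest DMSO value. In DMSO it rose from DE1 to DE2 (log2 fold change 0.79, SE 0.23, adjusted p = 0.00968; adjusted p = 0.0710 without 7H2).

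Agrn, the proteoglycan agrin (chromosome 4, 156165290 to 156197488, minus strand), stood at 10932, 8619 and 10988 in EPI, 6433, 5708 and 4302 in PS, 11747, 12285 and 13082 in DE1 and at 19675, 21477 and 20236 in DE2 with DMSO. It fell from EPI to PS (log2 fold change -0.90, SE 0.12, adjusted p = 1.25e-05) and then rose to DE1 (log2 fold change 1.19, SE 0.12, adjusted p = 8.57e-08) and DE2 (log2 fold change 0.73, SE 0.12, adjusted p = 6.57e-05). The dTAG13 libraries held 6465, 6477 and 5668 in PS, 9586, 8969.97 and 8625 in DE1 and 20889, 20443 and 20993 in DE2. The groups lay apart in DE1 and overlapped in PS and DE2. Agrn fell in DE1 (log2 fold change -0.45, SE 0.12, adjusted p = 0.0211). This call was lost without each line in turn (adjusted p = 0.0655, 0.188 and 0.143 without 7H, 7H1 and 7H2), with equal totals (0.0693) and with quantile normalisation (0.0692), with every value still negative.

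Fn1 was not called in any dTAG13 comparison but in all 3 steps, and Sparc fell with dTAG13 in DE2. Fn1, whose product is laid down by migrating cells (chromosome 1, 71585520 to 71653200, minus strand), stood at 14873, 20753 and 16885 in EPI, 60289, 48308 and 39602 in PS, 16289, 9413 and 11184 in DE1 and at 71716, 45111 and 58557 in DE2 with DMSO. It rose from EPI to PS (log2 fold change 1.49, SE 0.30, adjusted p = 0.00129), fell to DE1 (log2 fold change -2.02, SE 0.30, adjusted p = 2.36e-05) and rose again to DE2 (log2 fold change 2.26, SE 0.30, adjusted p = 1.05e-05). In PS it stood at 37174, 20854 and 30834 with dTAG13, below every DMSO library, and was not called (log2 fold change -0.76, adjusted p = 0.511). In DE2 the dTAG13 values were 47214, 34316 and 87498 and overlapped those of DMSO. Sparc, a calcium-binding protein that binds collagen IV (chromosome 11, 55394500 to 55423183, minus strand), stood at 5208, 5229 and 4467 in DE1 and at 17274, 14198 and 14856 in DE2 with DMSO, and at 4326, 3409 and 3706 in DE1 and at 8656, 6657 and 8738 in DE2 with dTAG13. It rose from DE1 to DE2 in DMSO (log2 fold change 1.63, SE 0.19, adjusted p = 1.6e-06). The groups lay apart at both times, and Sparc fell with dTAG13 in DE2 (log2 fold change -0.95, SE 0.19, adjusted p = 0.00148; adjusted p = 0.0613 without 7H1). In DE1 its difference of -0.38 was called with the line as a block alone (adjusted p = 0.0319, against 0.281). The ratio of Col4a1 to Sparc per kb of exon was 0.241, 0.147 and 0.119 in DE2 with DMSO and 1.04, 0.850 and 0.538 with dTAG13, without overlap. Vtn, the plasma protein vitronectin, lay between 0 and 25.6 and was not called.

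Of the 11 fibrillar collagen chains, with dTAG13 Col2a1 fell in DE1, Col24a1 fell in DE2, Col5a1 rose in both and Col27a1 rose in DE2. Col2a1, known from cartilage and notochord (chromosome 15, 97975602 to 98004695, minus strand), stood at 202, 196 and 246 in PS, 1751, 1859 and 1948 in DE1 and at 7618, 4012 and 5890.1 in DE2 with DMSO. With dTAG13 it stood at 139, 164 and 209 in PS, 400.3, 653 and 473 in DE1 and at 7549, 4065 and 7883 in DE2. In DE1 every dTAG13 library was far below every DMSO library, and in DE2 the groups overlapped. Col2a1 fell with dTAG13 in DE1 (log2 fold change -1.89, SE 0.27, adjusted p = 8.91e-05) and was not called in DE2 (log2 fold change 0.14, adjusted p = 0.790). In DMSO it rose from PS to DE1 (log2 fold change 3.11, SE 0.27, adjusted p = 1.44e-08) and to DE2 (log2 fold change 1.61, SE 0.27, adjusted p = 9.25e-05).

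Col5a1, a minor chain that sets fibril width (chromosome 2, 27886425 to 28039514, plus strand), stood at 2979.8, 1545 and 1845 in DE1 and at 6713, 3121 and 4022 in DE2 with DMSO, and at 5054, 4058 and 3502 in DE1 and at 9525, 6060.1 and 7507 in DE2 with dTAG13. The groups lay apart in DE1 and overlapped in DE2, where each line was higher. It rose with dTAG13 in DE1 (log2 fold change 1.03, SE 0.27, adjusted p = 0.0194) and DE2 (log2 fold change 0.79, SE 0.27, adjusted p = 0.0480). The DE1 call was lost without 7H1 (adjusted p = 0.200) and 7H2 (0.190), and the DE2 call without 7H1 (0.230), without 7H2 (0.262), with no filter (0.0544), with equal totals (0.0518) and with quantile normalisation (0.0533). Col27a1, a fibrillar chain of cartilage (chromosome 4, 63214004 to 63334991, plus strand), stood at 371, 252 and 355 in DE2 with DMSO, against 1071, 745 and 598 with dTAG13, without overlap. It rose there (log2 fold change 1.28, SE 0.35, adjusted p = 0.0150), a call lost without 7H (adjusted p = 0.0983) and 7H1 (0.0887). In DMSO it rose from EPI to PS (log2 fold change 1.98, SE 0.35, adjusted p = 0.000311) and fell to DE1 (log2 fold change -1.13, adjusted p = 0.0127; 0.0759 without 7H and 0.0616 without 7H1).

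Col24a1, another fibrillar chain, stood at 181, 7.77 and 77.1 in DE2 with DMSO, against 4.97, 0 and 0 with dTAG13. The groups did not overlap, but the DMSO lines themselves lay far apart and 7H1 stood near the dTAG13 value of 7H. Col24a1 fell (log2 fold change -4.78, SE 1.08, adjusted p = 0.00337; adjusted p = 0.143 without 7H2). Col11a1, a chain of cartilage fibrils, rose in DMSO from PS to DE1 (log2 fold change 2.41, SE 0.37, adjusted p = 1.92e-05), from 61.9, 46 and 29.6 to 231, 234 and 246. In DE1 with dTAG13 it was at 482, 545 and 494, above every DMSO library, and was not called (adjusted p = 0.0751; 0.00710 with the line as a block). Col1a2, a chain of type I collagen, went from 2315, 1540.3 and 1664 in DE1 to 7979.7, 9306 and 8942 in DE2 with DMSO and rose (log2 fold change 2.27, SE 0.46, adjusted p = 0.000747). In DE1 it stood at 3073, 3415 and 3035 with dTAG13, above every DMSO library, and was called with the line as a block alone (log2 fold change 0.81, adjusted p = 0.0258, against 0.365). Its partner Col1a1 was not called in that step (adjusted p = 0.327). It stood at 2290.4, 1035 and 959 in DE1 and at 2088, 2631 and 1474 in DE2, higher in 2 of the 3 lines. In DE2 Col1a1 stood at 907, 1331 and 1154 with dTAG13, below all 3 DMSO libraries, and was called lower with the line as a block alone (log2 fold change -0.85, adjusted p = 0.0149, against 0.249). Col5a2 likewise stood at 499, 486 and 346 with DMSO, against 161, 232 and 196 with dTAG13 there (adjusted p = 0.118; 0.00529 with the block).

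Of the FACIT collagens, which coat fibrils, Col14a1 was called with dTAG13. Col14a1 (chromosome 15, 55307750 to 55520803, plus strand) stood at 36.4, 27.5 and 36.7 in PS, 252, 229.8 and 224 in DE1 and at 72.1, 24.2 and 21.7 in DE2 with DMSO, and at 21.9, 38.9 and 14.7 in PS, 1704, 1459 and 1407 in DE1 and at 236, 440.1 and 87.2 in DE2 with dTAG13. In both endoderm stages each dTAG13 library was above each DMSO library. Col14a1 rose with dTAG13 in DE1 (log2 fold change 2.69, SE 0.78, adjusted p = 0.0374) and DE2 (log2 fold change 2.60, SE 0.78, adjusted p = 0.0256). With 2 lines left the DE1 call was lost each time (adjusted p = 0.226, 0.122 and 0.0790 without 7H, 7H1 and 7H2, at log2 fold changes of 2.65, 2.70 and 2.71), and the DE2 call without 7H (0.0982) and 7H1 (0.253). In DMSO it rose from PS to DE1 (log2 fold change 2.78, SE 0.78, adjusted p = 0.00643; adjusted p = 0.0628 without 7H) and fell to DE2 (log2 fold change -2.77, adjusted p = 0.00785). From EPI to PS it rose by 2.15 (adjusted p = 0.0457), a call lost without 7H (0.366), without 7H2 (0.0915), with equal totals (0.0555) and with no filter (0.0516).

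Col12a1, the FACIT collagen of tendon and fascia (chromosome 9, 79598991 to 79718831, minus strand), went from 351, 81.1 and 258 in PS to 29.8, 6.75 and 17 in DE1 and 361, 359 and 467 in DE2 with DMSO. It fell from PS to DE1 (log2 fold change -3.59, SE 0.60, adjusted p = 5.89e-05) and rose to DE2 (log2 fold change 4.60, SE 0.60, adjusted p = 5.32e-06). In DE1 with dTAG13 it was at 44.1, 110.3 and 32.9, above every DMSO library, and was called with the line as a block alone (adjusted p = 0.0370, against 0.0785). Col9a1, a chain of cartilage collagen IX chosen after its values were seen, stood at 1.68, 0 and 1.13 in EPI, 55, 53.8 and 65.2 in PS and 1.27, 8.66 and 1.86 in DE1 with DMSO. It was at 10 or more in the 6 PS libraries alone, so it passed the filter through the stage in which it is high. With dTAG13 its PS values were 28, 38.6 and 54.1, overlapping those of DMSO.

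Of the 4 transmembrane collagens, Col23a1, Col13a1 and Col17a1 rose from PS to DE1 in DMSO, and Col13a1 and Col17a1 fell with dTAG13 in DE2. Col23a1 (chromosome 11, 51289920 to 51583918, plus strand) stood at 62.3, 72 and 101 in PS, 5579, 6059 and 7308 in DE1 and at 352, 572 and 356 in DE2 with DMSO. It rose from PS to DE1 (log2 fold change 6.33, SE 0.48, adjusted p = 2.82e-09) and fell to DE2 (log2 fold change -3.91, SE 0.48, adjusted p = 2.84e-06), so it was highest at DE1, and its DE2 libraries stayed above those of PS. With dTAG13 it stood at 24.2, 22.4 and 50.2 in PS, 4647, 5285 and 5244 in DE1 and at 274, 467 and 109.6 in DE2. The groups lay apart in PS and DE1 and overlapped in DE2. None of these differences was called, with adjusted p = 0.446 in PS, where the value with the line as a block was 0.0134 at a log2 fold change of -1.32. In DE2 the log2 fold change was -0.78, with adjusted p = 0.307 and 0.0322 with the block.

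Col13a1, a collagen of cell junctions and the neuromuscular synapse (chromosome 10, 61838236 to 61979108, minus strand), stood at 5.65, 0 and 1.89 in EPI, 86.4, 181 and 179 in PS, 442, 481 and 601 in DE1 and at 14.3, 61.1 and 25.1 in DE2 with DMSO. It rose from EPI to PS (log2 fold change 5.73, SE 0.71, adjusted p = 4.96e-06) and to DE1 (log2 fold change 1.83, adjusted p = 0.0405) and fell to DE2 (log2 fold change -4.11, SE 0.71, adjusted p = 0.000103). The rise to DE1 was lost without each line (adjusted p = 0.160, 0.0636 and 0.124 without 7H, 7H1 and 7H2). With dTAG13 the values were 24.6, 37.6 and 68.7 in PS, 198, 135 and 138 in DE1 and 1.19, 3.26 and 0 in DE2. Every dTAG13 library was below every DMSO library at each of these 3 stages, and Col13a1 was called in DE2 (log2 fold change -3.79, SE 0.71, adjusted p = 0.000603) but not in PS (log2 fold change -1.79, adjusted p = 0.495) or DE1 (-1.70, adjusted p = 0.168).

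Col17a1, the collagen of hemidesmosomes (chromosome 19, 47646344 to 47692094, minus strand), stood at 1.77, 2.33 and 1.96 in PS, 22.3, 104 and 50.3 in DE1 and at 77.8, 186 and 62.9 in DE2 with DMSO. Its dTAG13 values were 1.93, 33.7 and 0 in DE1 and 5.00, 0 and 2.72 in DE2. In DE2 the groups lay far apart, while in DE1 line 7H1 with dTAG13 exceeded line 7H with DMSO. Col17a1 rose from PS to DE1 in DMSO (log2 fold change 4.06, SE 0.96, adjusted p = 0.00173) and fell with dTAG13 in DE1 (log2 fold change -3.42, SE 0.96, adjusted p = 0.0298) and DE2 (log2 fold change -5.12, SE 0.96, adjusted p = 0.000673). The DE1 call was lost without 7H (adjusted p = 0.165) and 7H2 (0.459). It was at 10 or more in 7 libraries, those of endoderm with DMSO and line 7H1 in DE1 with dTAG13. Col17a1 thus passed the filter through the groups in which it is high, which favours a rise into them and a fall from them. Its level elsewhere cannot be told from low counts.

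Of the multiplexins, which carry the endostatin domain, Col18a1 (chromosome 10, 77052178 to 77166548, minus strand) was lower at each step to DE1 and higher at DE2. With DMSO it stood at 5291, 6679.9 and 5734 in EPI, 4507, 2270.2 and 3579.6 in PS, 2027, 1119 and 1219 in DE1 and at 3238, 1817 and 3285 in DE2. It fell from EPI to PS (log2 fold change -0.82, adjusted p = 0.0387; 0.211 without 7H1 and 0.165 without 7H2) and to DE1 (log2 fold change -1.24, SE 0.29, adjusted p = 0.00153), and rose to DE2 (log2 fold change 0.93, SE 0.29, adjusted p = 0.0137; 0.204 without 7H2). The dTAG13 libraries held 2394, 2218 and 1628 in DE1, higher in each line, and 1243, 1082 and 1781 in DE2, lower in each line. Col18a1 fell in DE2 (log2 fold change -1.0, SE 0.29, adjusted p = 0.0198), a call lost without 7H (adjusted p = 0.176) and 7H2 (0.106). In DE1 it was not called (log2 fold change 0.55, adjusted p = 0.308; 0.0221 with the line as a block).

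The short-chain collagens Col8a1 and Col8a2 form lattices under endothelia. Col8a2 (chromosome 4, 126286793 to 126314330, plus strand) stood at 201, 181 and 175 in DE1 and at 327, 529.5 and 511 in DE2 with DMSO, and at 323, 342 and 343 in DE1 and at 228, 53.5 and 234 in DE2 with dTAG13. The groups lay apart at both times, with dTAG13 above DMSO in DE1 and below it in DE2. Col8a2 fell in DE2 (log2 fold change -1.64, SE 0.41, adjusted p = 0.00808); the log2 fold change was -0.82 without 7H1 (adjusted p = 0.171), and the call was lost without 7H2 too (0.0595). In DE1 its difference of 0.86 was not called (adjusted p = 0.255). Col8a1 went from 135, 56.8 and 100.1 in PS to 4.49, 6.80 and 12.4 in DE1 and 140.1, 144 and 144 in DE2 with DMSO, falling (log2 fold change -3.48, SE 0.44, adjusted p = 2.14e-06) and rising again (log2 fold change 4.11, SE 0.44, adjusted p = 4.74e-07). In DE2 it stood at 72.3, 45.7 and 69.8 with dTAG13, below every DMSO library, and was called with the line as a block alone (adjusted p = 0.00823, against 0.0675). Col7a1, the chain of anchoring fibrils, went from 1112, 1404 and 973 in DE1 to 4529.7, 3033 and 2411 in DE2 with DMSO and rose (log2 fold change 1.48, SE 0.27, adjusted p = 0.000199). With dTAG13 it stood at 6136, 5183 and 3748 in DE2, overlapping DMSO, and was called with the line as a block alone (log2 fold change 0.62, adjusted p = 0.0439, against 0.130). Col6a5, an alternative collagen VI chain at 10 or more in 7 libraries, stood at 15.3, 33 and 5.13 in DE2 with DMSO, against 1.04, 0 and 1.39 with dTAG13, without overlap. It was called lower (log2 fold change -3.15, SE 0.83, adjusted p = 0.0110), and the call was lost without 7H (adjusted p = 0.0589) and 7H1 (0.267).

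**Figure D4:**
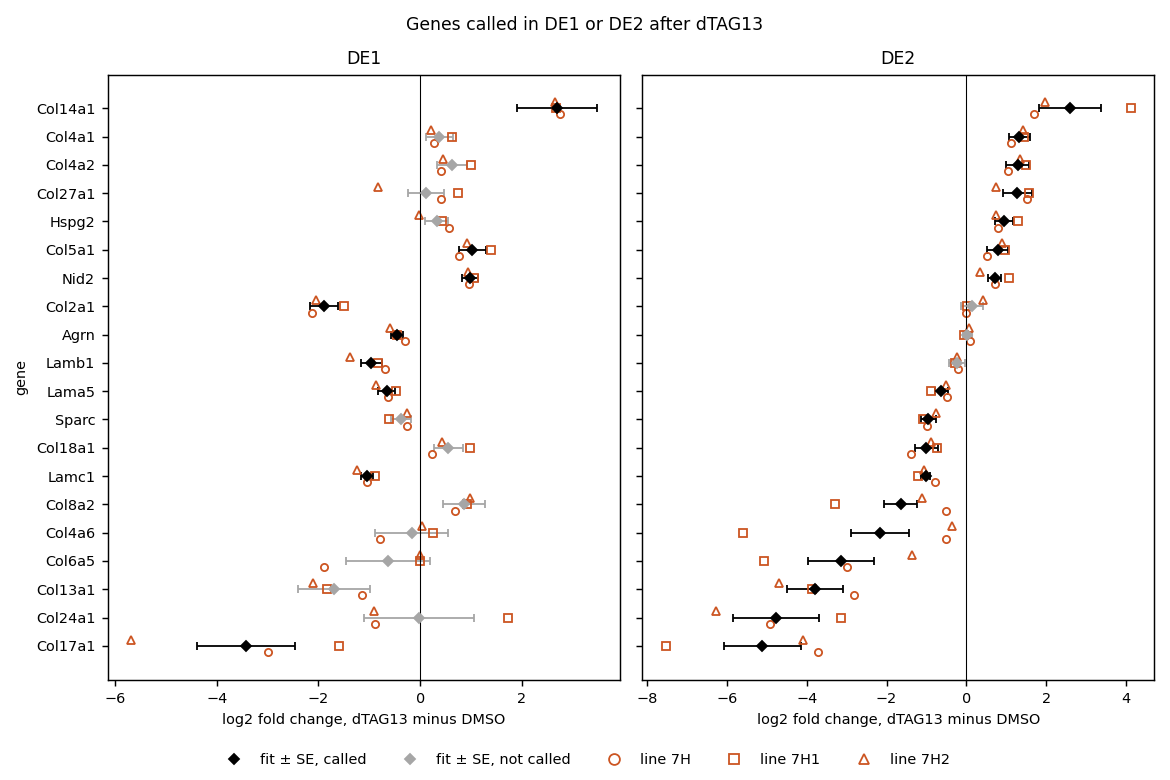
Log2 fold change of dTAG13 against DMSO for the 20 genes called in DE1 or DE2, as the fit with its SE (diamonds, black where called) and as the difference within each line (open symbols). Lamc1 sits near -1 in all 3 lines at both times, Col4a1, Col4a2 and Hspg2 are called higher in DE2 alone, and Col2a1, Agrn and Lamb1 lower in DE1 alone. A call at a single time is not a difference between times. Of the genes named here, only Col2a1 was called in the test of that difference with no block.

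Whether the effect of dTAG13 itself differed between successive stages was tested in the same fit, with libraries shared with the comparisons above. Between EPI and PS 0 of the 55 genes differed (0.0133% of all tested genes, 0.00665% in each direction; 2 of the 55 at an unadjusted p under 0.05). Between PS and DE1 3 differed, all more negative in DE1, where 2.14% of all genes were called (0.818% upward and 1.32% downward). These were Lamc1 (difference -1.08, SE 0.17, adjusted p = 0.000721), Col2a1 (-1.55, adjusted p = 0.0351) and Agrn (-0.65, adjusted p = 0.0483). With the line as a block 6 differed, with Lamb1 (difference -1.10, adjusted p = 0.000368), Lama5 (-0.80, 0.0154) and Nid2 (0.61, 0.0452) added. Between DE1 and DE2 3 differed, where 5.95% of all genes were called (2.92% upward and 3.03% downward). Col2a1 went up (difference 2.03, adjusted p = 0.00292), and Col18a1 (-1.55, adjusted p = 0.0260) and Col8a2 (-2.50, adjusted p = 0.0128) went down. With the block 18 differed, 7 upward and 11 downward, Col4a1 (difference 0.94, adjusted p = 0.000904) and Agrn (0.47, 0.0124) among the upward ones. Without 1 line, 0 to 2 and 0 to 1 genes were called in these 2 sets, the lowest of each without 7H2.

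Genes that make, modify or receive the matrix were counted in 4 further lists, beside 7.76% of all tested genes called with dTAG13 in DE1 and 17% in DE2. Of 28 collagen processing genes, 7 were called with dTAG13 in DE1 (5 higher and 2 lower, median log2 fold change 0.38) and 11 in DE2 (5 higher and 6 lower, median 0.07), or 25% and 39.3% of the list. The collagen cross-linking enzyme Loxl2 fell in both (log2 fold changes -1.16 and -0.78), while its relative Loxl4 rose in DE1 (1.86). In DE2 the collagen galactosyltransferase Colgalt1 (0.88) and the lysyl hydroxylase Plod3 (0.52) rose, and the lysyl hydroxylase Plod1 (-0.84) and the procollagen enhancer Pcolce2 (-2.10) fell. Of 37 other matrix genes that passed the filter, 2 were called in DE1 (both higher, median 0.35) and 6 in DE2 (3 higher and 3 lower, median -0.23), or 5.41% and 16.2%. Frem1 (2.30) and the integrin ligand Npnt (1.11) rose in DE1. In DE2 Tinagl1 (1.5) and Fbln1 (1.08) rose, and the TGF-beta binding protein Ltbp1 (-1.06) and Smoc2 (-4.08) fell.

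Of 22 matrix receptors other than integrins, 1 was called in PS, 2 in DE1 (1 higher and 1 lower) and 7 in DE2 (4 higher and 3 lower), with medians of 0.09, 0.12 and 0.05. These were 4.55%, 9.09% and 31.8% of the list, beside 0.219% of all genes in PS. Ddr1, a collagen receptor kinase, rose in PS (0.92). The heparan sulphate carrier Gpc3 fell in DE1 (-0.86) and DE2 (-1.80). In DE2 the heparan sulphate carriers Sdc1 (1.20) and Gpc1 (0.61) rose. Of 27 matrix proteases and inhibitors, 1 was called in DE1 (Mmp2, 1.10) and 6 in DE2 (2 higher and 4 lower), with medians of 0.43 and -0.42, or 3.7% and 22.2% of the list. Adamts9 (1.83) and Mmp14 (0.68) rose in DE2, and Mmp17 (-1.20) and Adamts15 (-1.71) fell. In EPI 0 genes of these 4 lists were called. Whether a list differs from all genes was not tested.

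Between DMSO groups, 10 of 28 collagen processing genes, 12 of 37 other matrix genes, 9 of 22 receptors and 10 of 27 proteases and inhibitors were called from EPI to PS, or 35.7%, 32.4%, 40.9% and 37%, where 27.5% of all tested genes were called. From PS to DE1, 19 of 28 collagen processing genes were called (9 higher and 10 lower), 18 of 27 proteases and inhibitors (4 higher and 14 lower), 13 of 37 other matrix genes (8 higher and 5 lower) and 10 of 22 receptors (5 higher and 5 lower). These were 67.9%, 66.7%, 35.1% and 45.5% of the lists, beside 44.1% of all tested genes (21.7% higher and 22.4% lower). The collagen chaperone Serpinh1 (1.24) and the collagen IV cross-linking peroxidase Pxdn (1.27) rose in that step, and the collagen lysyl hydroxylase Plod2 (-1.37) fell. Among receptors Gpc4 (3.70) and Gpc3 (2.34) rose and Sdc1 (-1.68) fell. From DE1 to DE2, 13 of 28 collagen processing genes were called (10 higher and 3 lower). So were 15 of 37 other matrix genes (8 higher and 7 lower) and 11 of 22 receptors (9 higher and 2 lower). Of 27 proteases and inhibitors 13 were called (10 higher and 3 lower). These were 46.4%, 40.5%, 50% and 48.1% of the lists, beside 39.3% of all tested genes (20.2% higher and 19.1% lower). Among those higher were the matrix proteins Thbs1 (5.49), Tinagl1 (3.08) and Npnt (2.33) and the receptor Ddr1 (2.88).

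Interstitial collagens varied widely between lines. Over the groups with a mean of at least 50, the median coefficient of variation was 47.6% for Col3a1, 46.8% for Col5a2, 40.7% for Col6a1 and 31.7% for Col1a1, against 6.45% for Agrn and 10.2% for Lamc1. In PS with DMSO, Col6a3 stood at 3536, 495 and 1319 and Col1a1 at 3499, 819 and 1982, highest in 7H and lowest in 7H1. Of 7 markers of fibroblasts and mesenchyme, 4 were likewise highest in 7H and lowest in 7H1 there, such as Postn at 1169.7, 183 and 379 and Prrx1 at 632, 190.5 and 469.7. The other 3 (Twist1, Thy1 and Tagln) were highest in 7H2, and all 7 were lowest in 7H1. All 7 markers of that list were above 0 in every group, and their sum was 2002 to 2981 in EPI, 1325 to 3392 in PS, 783 to 1369 in DE1 and 9192 to 14043 in DE2 with DMSO. With dTAG13 it was 1475 to 3337, 1715 to 3296, 1343 to 1644 and 4373 to 7908. The part of such cells in the values of Col1a1, Col3a1, Col5a2 and the collagen VI chains was not tested. Acta2, a member of that list which the heart and smooth muscle also use, made up most of its sum in DE2 with DMSO and fell with dTAG13 in DE1 (log2 fold change -3.20) and DE2 (-2.09). The other 6 had positive log2 fold changes in DE1 and were not called (median of all 7 0.73; 3 of 7 at an unadjusted p under 0.05, Acta2 included). In DE2 Thy1 (-1.88) was also lower, 5 of the 7 were negative, and the median was -1.08.

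**Figure D5:**
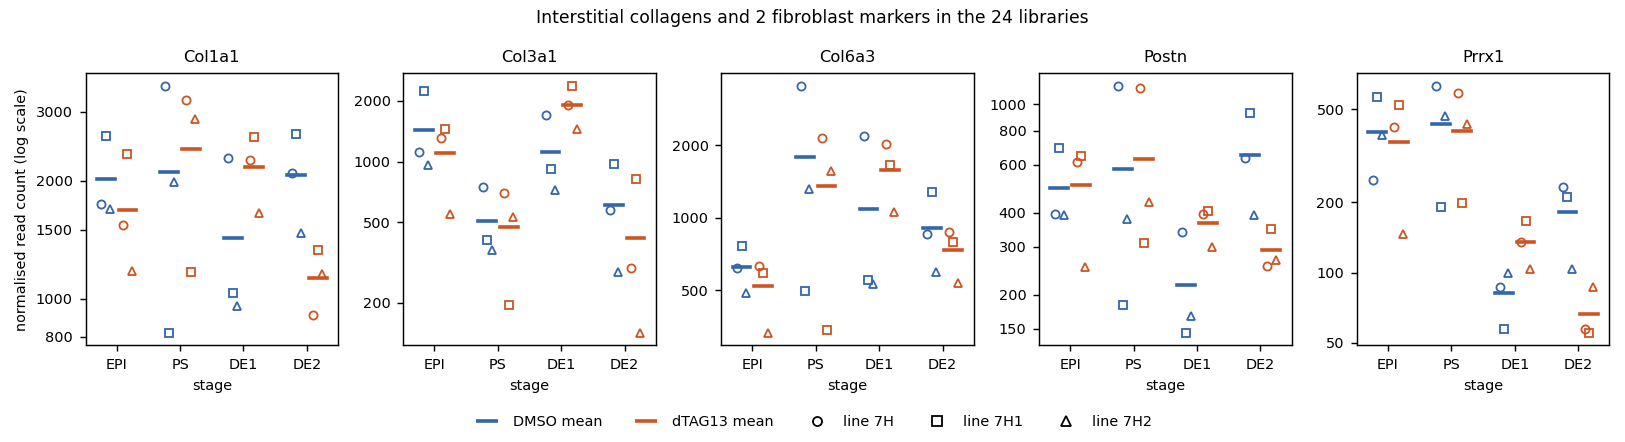
Normalised read count (log axis) of 3 interstitial collagens and 2 of the 7 fibroblast markers, Postn and Prrx1, by stage, with 1 point per library (shape by cell line) and a bar at each group mean. In PS line 7H is the highest and line 7H1 the lowest in DMSO for all but Col3a1.

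Markers of other cell types were also read beside these genes. Parietal endoderm, an extraembryonic tissue that makes a thick collagen IV and laminin membrane, had 4 of its 5 markers in the table, and 0 of them were called with dTAG13 at any stage by limma. At an unadjusted p under 0.05 there were 0 in EPI, 3 in PS, 3 in DE1 and 1 in DE2. In DE1, where Nid2 rose, the log2 fold changes of Thbd (1.53), Plat (1.28) and Srgn (1.64) were positive and that of Pth1r (-0.44) negative, with a median of 1.41. Their sum there was 647 to 774 with DMSO and 727 to 933 with dTAG13, and in DE2 it was 959 to 1190.4 with DMSO and 692 to 1095 with dTAG13. Of the visceral endoderm markers, 6 of 9 passed the filter and all 6 were called in DE2, Dab2 (2.78), Apob (2.10) and Rbp4 (1.16) higher and Apoa1 (-4.54), Amn (-3.96) and Cubn (-3.33) lower. The sum over all 9 in DE2 was 995 to 1375 with DMSO and 2638 to 4389 with dTAG13. Of 4 endothelial markers that passed, Kdr (2.52) and Tek (2.16) were higher in DE1, where the list summed to 125 to 159 with DMSO and 467 to 712 with dTAG13. The 6 epiblast markers summed to 19961 to 20170.2 in DE1 with DMSO and 12133 to 14061 with dTAG13, and to 20716 to 27802 and 12014 to 13906 in DE2. Of them Fgf5 fell in DE1 (-0.79) and DE2 (-1.19) and Sox3 rose in DE2 (1.34), with medians of 0.01 in DE1 and -0.82 in DE2. The 5 primitive streak markers in the table summed to 51039 to 60139.8 in PS with DMSO and 28168 to 40805 with dTAG13. Their sums were 68643 to 76331 and 51324 to 56209.9 in DE1, and 34599.7 to 53873 and 13174 to 21408 in DE2. These sums were lower with dTAG13 without overlap, but they did not follow the list in endoderm. All 5 log2 fold changes were negative in PS, while 3 of the 5 were positive in DE1 and in DE2. Lhx1 fell in PS (-1.73) and DE2 (-1.55) and Mixl1 rose in DE2 (2.34), and the median log2 fold changes in PS, DE1 and DE2 were -0.83, 0.23 and 0.08. The part of these cell types in the collagen IV, laminin and Nid2 values was not tested.

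Of the members not yet described, Col9a2, Col5a3, Col10a1 and Col15a1 were called in 1 step each. Col9a2, a chain of cartilage collagen IX, went from 3.72, 3.94 and 21.5 in DE1 to 66.4, 46.5 and 27.9 in DE2 with DMSO and rose (log2 fold change 2.49, SE 0.68, adjusted p = 0.00594), a call lost without 7H (adjusted p = 0.0826) and 7H1 (0.113). Col5a3, a fibrillar chain, went from 627, 776 and 515 in EPI to 235, 174 and 305 in PS and fell (log2 fold change -1.44, SE 0.41, adjusted p = 0.0129; 0.0575 without 7H and 0.0964 without 7H1). Col15a1, the other multiplexin, and Col10a1, the collagen of hypertrophic cartilage, were low, between 0.745 and 89.8 and between 0 and 37.1 over the 24 libraries, and were named after their values were seen. Col15a1 rose from PS to DE1 (2.58, adjusted p = 0.0349; 0.268 without 7H1 and 0.0830 without 7H2), and Col10a1 fell from EPI to PS (-3.84, adjusted p = 0.00418; 0.104 without 7H1).

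In all, 37 of the 55 genes were called in at least 1 step or dTAG13 comparison and 18 in none, where 72.5% of all tested genes were called in at least 1. Those called in none were Col1a1, Col3a1, Col5a2, Col11a2, Col4a5, Col6a1, Col6a2, Col6a3, Col9a3, Col16a1, Col20a1, Col22a1, Col25a1, Col26a1, Lama2, Lama4, Nid1 and Vtn. They span low genes, such as Col26a1 between 0 and 25.6 and Col20a1 between 0 and 72.7, and genes of middle level, such as Col16a1 between 127 and 753. Of the 9 genes called with dTAG13 in DE1, 8 had groups that did not overlap and all 9 moved one way in the 3 lines, against 99.1% and 99.8% of the 1167 genes called there. Of the 17 called in DE2, 15 did not overlap and all 17 moved one way, against 92.7% and 99.1% of the 2551 called there. The counts are therefore no result about the 55 genes.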

How the data were processed

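Polyadenylated RNA of 24 libraries was sequenced, and 1 table of read counts per gene, scaled between libraries by DESeq2 size factors, was deposited by the authors. The values are a normalised signal, not whole counts, and the submitters' processing notes name mm10 and DESeq2. Aligner, counter and strandedness were not given in the sources used here, and reads of overlapping genes may be shared between them. The values did not resolve into whole reads, and no model for counts was applied.

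Genes at 10 or more in at least 3 libraries (15037 of 18205) were fitted on log2(value + 1) with limma 3.58.1 in R 4.3.3, over 8 groups with 16 residual degrees of freedom, with an intensity trend and robust variances, and p-values were adjusted by Benjamini-Hochberg. The tests are two-sided. The fit was tested on simulated data with independent noise, no differences between stages and no line effect. That test therefore does not show how the fit without a line term behaves on libraries paired by line. The 10 comparisons were 4 of dTAG13 with DMSO, 3 steps between DMSO groups and 3 differences of dTAG13 effect. Groups came from the sample titles.

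Replicate numbers stand for the cell lines 7H, 7H1 and 7H2, so same-numbered samples are paired by line. After subtracting group means, libraries of 1 line correlated by 0.0703 to 0.381 across genes between dTAG13 and DMSO, and most strongly with the own line in 12 of 12 cases. The fit without the line as a term is the main one, and the fit with it an alternative. Others were a pseudocount of 5, no filter, equal totals, quantile normalisation, each line left out, and a fit of 2 groups alone.

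The members and gene lists were chosen with earlier results of these data known. Genes described with values per library are those called with dTAG13, the laminin, collagen IV, nidogen, perlecan, agrin, fibronectin and SPARC genes, and up to 8 genes per direction in each step with a mean of at least 50. From the related lists, the 4 genes of smallest p in a comparison could be named. A few genes of these lists are not reported here.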

Additional observations from a re-analysis of the deposited data

Results flagged for a closer look

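In 6 cases the effect of dTAG13 on a gene differed between successive stages by a test of the difference itself in limma. From PS to DE1 the effect became more negative for Lamc1 (difference in log2 fold change -1.08, adjusted p = 0.000721), from 0.03 to -1.05. Without 7H2 its adjusted p was 0.0558. For Col2a1 it went from -0.34 to -1.89 (difference -1.55, adjusted p = 0.0351; 0.164 without 7H and 0.486 without 7H2). For Agrn it went from 0.20 to -0.45 (difference -0.65, adjusted p = 0.0483), and the call was lost without each line (adjusted p = 0.106, 0.368 and 0.414 without 7H, 7H1 and 7H2), with equal totals (0.0992), with quantile normalisation (0.0921) and with no filter (0.0544).

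From DE1 to DE2 the effect on Col2a1 went from -1.89 to 0.14 (difference 2.03, adjusted p = 0.00292; 0.124 without 7H2). For Col18a1 it went from 0.55 to -1.0 (difference -1.55, adjusted p = 0.0260), and for Col8a2 from 0.86 to -1.64 (difference -2.50, adjusted p = 0.0128). Both calls were lost without each line in turn, at adjusted p = 0.148, 0.0665 and 0.148 for Col18a1 and 0.0509, 0.108 and 0.124 for Col8a2. Each of the 6 differences kept its sign in every setting tried.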

How the results depend on the processing

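With the line as a block, more of the 55 genes were called: 2 in PS, 16 in DE1 (9 with no block), 6 in the difference of DE1 from PS and 18 in that of DE2 from DE1 (3 each with no block). Calls were added in DE2 too, as given gene by gene above. Col4a6 in DE2 was the 1 called gene that lost its call under the block, and the block took no other call away. For the genes described in the dTAG13 comparisons it changed no other call than those given above. A fit of the 2 DE1 groups alone called 16, and a pseudocount of 5 called 5 in the difference of DE1 from PS. Without 1 line at a time, the counts ranged from 4 to 6 in DE1, 6 to 12 in DE2, 0 to 2 and 0 to 1 in these differences, and 9 to 11, 19 to 21 and 19 to 23 in the steps. No value of a called gene changed sign in any setting tried.

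Over all genes, the block raised the calls from 13 to 86 in EPI, 33 to 362 in PS, 1167 to 2376 in DE1 and 2551 to 4139 in DE2. It also raised the differences, from 2 to 39 for PS from EPI, 322 to 954 for DE1 from PS and 895 to 2258 for DE2 from DE1. Fits of 2 groups alone gave 2, 11, 2304 and 1564 with dTAG13, and fits without a line gave as few as 3, 9, 380 and 998. Without a line, as few as 1349 of 4132 genes were called from EPI to PS, 3915 of 5914 from DE1 to DE2, and 78 and 170 in the last 2 differences. With equal totals the share of calls that are higher moved from 48.2 to 59.9% in DE1 with dTAG13, from 53.2 to 41.8% from EPI to PS and from 49.1 to 38% in the difference of DE2 from DE1. From DE1 to DE2 the median over all genes shifted by -0.105 under quantile normalisation. The cause of these shifts was not tested. The depth is unknown, so values near 10 carry a counting error that cannot be given.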
